A study of Homo sapiens with 16 samples.

Results

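The comparison described here sets neutrophil-like HL-60 cells given 10 µg/ml lipoteichoic acid (LTA) for 4 h against the same cells given 1 µg/ml for 4 h. It rests on 4 libraries, 2 at each dose, of the 16 in the series, chosen by their sample labels. All 12 libraries of differentiated cells (dHL-60, 6 groups of 2) entered the fit, so that they share 1 estimate of the spread. The question was whether the early response already reaches its full size at the low dose, and which groups of genes still differ between the doses.

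HL-60 is a human promyelocytic leukaemia line. Every library used here came from differentiated wild-type cells, made with an agent that the sources used here leave unnamed. The groups were 10 µg/ml LTA for 4 h, 1 µg/ml LTA for 4 h, 10 µg/ml LTA for 24 h, 1 µg/ml LTA for 24 h, and untreated cells at 4 h and 24 h. The LTA was from Staphylococcus aureus. Nothing in the labels says that the duplicates were separate cultures, so p-values measure only how far these samples vary, and that variation may be technical. Library totals were 9653374 to 14285322 counts in the 4 libraries compared and 9653374 to 16530277 in all 12. Levels are given as counts relative to scaled library totals (CPM) and are compared between samples for 1 gene, never between genes.

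LTA is a glycolipid of the Gram-positive cell envelope. It is sensed at the cell surface by TLR2, which pairs with TLR1 or TLR6 and is loaded with the help of CD14. The adaptor MYD88 then passes the signal to IRAK kinases and NF-κB, which switches on cytokines, chemokines and its own inhibitors. Cells make and import cholesterol under a separate control, in which the factor SREBP2 (gene SREBF2) leaves the endoplasmic reticulum when sterols are low and raises the genes of sterol synthesis and uptake.

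The labelled cell type was checked against marker lists. Each of 28 mature neutrophil genes in the table had counts at both doses, and their summed level was 12817 to 14138 CPM at 10 µg/ml and 13201 to 13320 CPM at 1 µg/ml. Promyelocyte and progenitor genes summed to 12918 to 14249 CPM at 10 µg/ml and 13990 to 14599 CPM at 1 µg/ml. FCGR3B, the CD16b receptor of mature blood neutrophils, had 1 count over both libraries at 10 µg/ml, against 9 counts over both at 1 µg/ml. ITGAM, the CD11b integrin gained in differentiation, stood at 96.6 and 105 CPM at 10 µg/ml, against 96.5 and 99.7 CPM at 1 µg/ml. MPO, the myeloperoxidase of promyelocyte granules, stood at 7429 and 6042 CPM at 10 µg/ml, against 7559 and 6969 CPM at 1 µg/ml. Macrophage and dendritic cell markers summed to 1369 to 1640 CPM at 10 µg/ml and 1335 to 1588 CPM at 1 µg/ml, and lymphocyte markers to 644 to 705 CPM and 647 to 695 CPM at these doses, with CD3G, CD79B and NCAM1 at 0 counts in all 6 libraries of 4 h. The sums overlapped between the doses for each of these lists. In bulk RNA, fewer cells of a type and less RNA per cell cannot be told apart.

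Between 10 and 1 µg/ml at 4 h, 1 of 11866 genes tested was called by edgeR's quasi-likelihood test at an adjusted p under 0.05, which is 0.00843% of them. That gene was HBB, the beta chain of haemoglobin. The next smallest adjusted p was 0.0846, for EIF3CL, and the third smallest was 1. At an unadjusted p under 0.05 there were 216 genes (1.82%), of which 78 (0.657%) were higher at 10 µg/ml and 138 (1.16%) lower. That is a smaller share than this threshold alone would give if no gene differed. DESeq2 called 2 genes, HBB and EIF3CL. Without the second 1 µg/ml library the genes at an unadjusted p under 0.05 numbered 353, and without the second 10 µg/ml library 334. Leaving out that second 10 µg/ml library also brought the called genes to 2, HBB and C4orf48.

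Each dose differed widely from untreated cells over the same genes. At 10 µg/ml, 4903 genes (41.3%) were called against untreated cells, 2379 higher (20%) and 2524 lower (21.3%). At 1 µg/ml, 4594 genes (38.7%) were called, 2214 higher (18.7%) and 2380 lower (20.1%). Both comparisons share the 2 untreated libraries. Over all genes tested, libraries of 10 and 1 µg/ml lay 0.335 to 0.427 apart as the root mean square of log2 CPM differences. The 2 libraries of 10 µg/ml lay 0.397 apart and the 2 of 1 µg/ml 0.441, so the largest distance between the doses was below that between the 1 µg/ml replicates. Against untreated libraries the distances were 1.01 to 1.08 for 10 µg/ml and 0.983 to 1.048 for 1 µg/ml.

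A p that misses the threshold does not show that 2 doses act alike, so intervals are given. The median standard error (SE) of a gene's log2 difference between the doses was 0.188. For 9716 genes (81.9%) the whole 95% interval lay within a 2-fold difference either way, and for 6877 (58%) it lay within 1.5-fold. The remaining 2150 genes could differ by more than 2-fold within their interval. The median log2 difference over all genes was 0.01, with 53.8% of genes above 0. Both libraries of 10 µg/ml lay above both of 1 µg/ml for 1608 genes (13.6%), and below both for 1347 of the 11866.

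**Figure D1:**
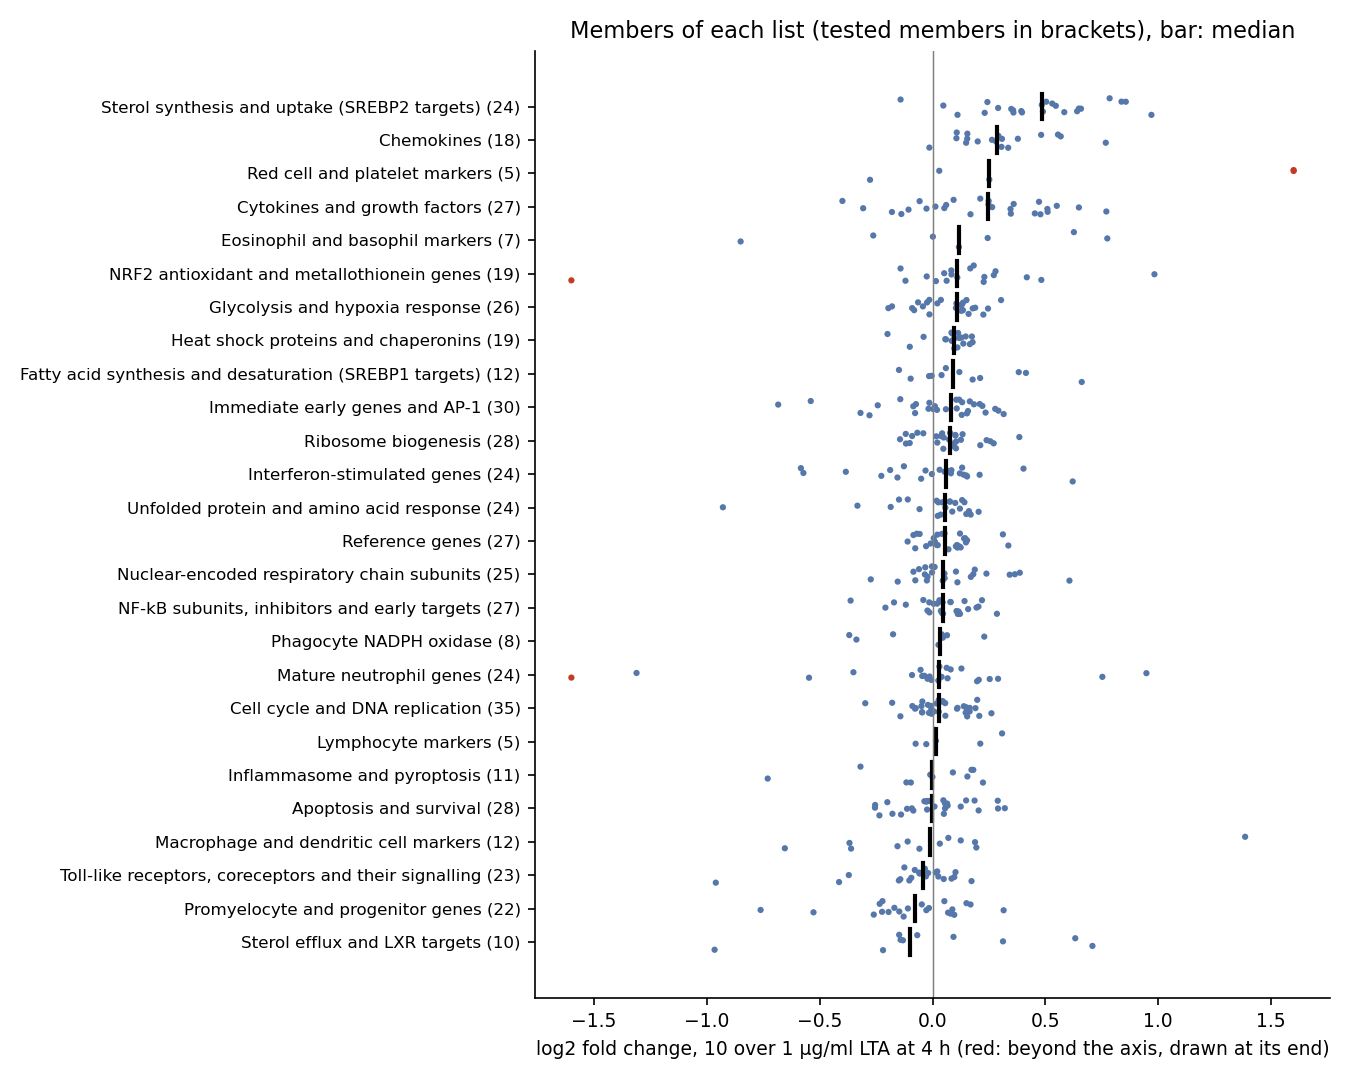
Log2 difference between 10 and 1 µg/ml LTA at 4 h for the tested members of each gene list, 1 point per gene, with a bar at each list's median and red points for genes beyond the axis. Sterol synthesis and uptake has the median farthest above 0 of the lists shown, at 0.49, and the NF-κB list lies at 0.04.

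None of the receptors and adaptors of LTA sensing was called between the doses. TLR2 stood at 1330.5 and 1227 CPM at 10 µg/ml, against 1221 and 1191 CPM at 1 µg/ml, with 194 and 201 CPM in untreated cells. Its log2 difference between the doses was 0.08 ± 0.15 (SE), a 1.06-fold level with a 95% interval of 0.842 to 1.34. Against untreated cells TLR2 rose at both doses, by 2.69 at 10 µg/ml and 2.61 at 1 µg/ml on the log2 scale. Both libraries of 10 µg/ml lay above both of 1 µg/ml for TLR2, with a gap smaller than the one within the 10 µg/ml pair.

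CD14, the coreceptor, stood at 641 and 732 CPM at 10 µg/ml, against 751 and 723 CPM at 1 µg/ml, 0.931-fold with an interval of 0.743 to 1.17. The adaptor MYD88 was at 0.96-fold (0.775 to 1.19) and TLR1 at 0.906-fold (0.676 to 1.21). TLR6 stood at 16.3 and 16.2 CPM at 10 µg/ml, against 18.2 and 24.7 CPM at 1 µg/ml, and its fold of 0.751 had an interval of 0.552 to 1.02. Both libraries of 10 µg/ml lay below both of 1 µg/ml for TLR6, and the difference was not called (unadjusted p = 0.0644). CD36, a scavenger receptor that can hand ligands to TLR2, had too few counts to be tested.

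Among 23 tested genes of Toll-like receptors and their signalling, 0 were called between the doses and 1 had an unadjusted p under 0.05. That gene was UNC93B1, the chaperone that carries endosomal Toll-like receptors, at 56.5 and 69.4 CPM at 10 µg/ml, against 85.4 and 77.6 CPM at 1 µg/ml, a log2 difference of -0.37 ± 0.16 (SE, unadjusted p = 0.0400). The list's median was -0.04, and 21 of the 23 intervals lay within 2-fold. IRAK2, a kinase downstream of MYD88, stood at 304 and 241 CPM at 10 µg/ml, against 269.8 and 214 CPM at 1 µg/ml.

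NF-κB subunits, inhibitors and early targets rose at both doses. All 27 tested members were called higher than in untreated cells at 10 µg/ml and all 27 at 1 µg/ml, with medians of 2.40 and 2.31 on the log2 scale. Between the doses 0 were called and 0 had an unadjusted p under 0.05. The median was 0.04, and 26 of the 27 intervals lay within 2-fold. Both libraries of 10 µg/ml lay above both of 1 µg/ml for 3 members (11.1%), against 13.6% of all genes. They lay below for 0, against 1347 of all 11866 genes. The list's members ran from -0.36 for TNIP3 to 0.29 for TRAF1.

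NFKBIA, which encodes the inhibitor IκBα, stood at 3747 and 3847 CPM at 10 µg/ml, against 3834 and 3193 CPM at 1 µg/ml, and untreated cells held 758 and 367 CPM. TNFAIP3, the ubiquitin-editing enzyme A20 that ends NF-κB signalling, stood at 2115 and 1604 CPM at 10 µg/ml, against 1932 and 1298 CPM at 1 µg/ml. Their dose groups overlapped, with folds of 1.08 (0.728 to 1.6) and 1.15 (0.765 to 1.73). TRAF1, a signalling adaptor of TNF receptors and the member with the smallest p, stood at 1418 and 1248 CPM at 10 µg/ml, against 1188 and 999 CPM at 1 µg/ml (log2 0.29 ± 0.18, unadjusted p = 0.134). CD40, a costimulatory receptor, was 1.03-fold (0.812 to 1.3) and SERPINB9, a granzyme B inhibitor, 1.27-fold (0.861 to 1.87).

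**Figure D2:**
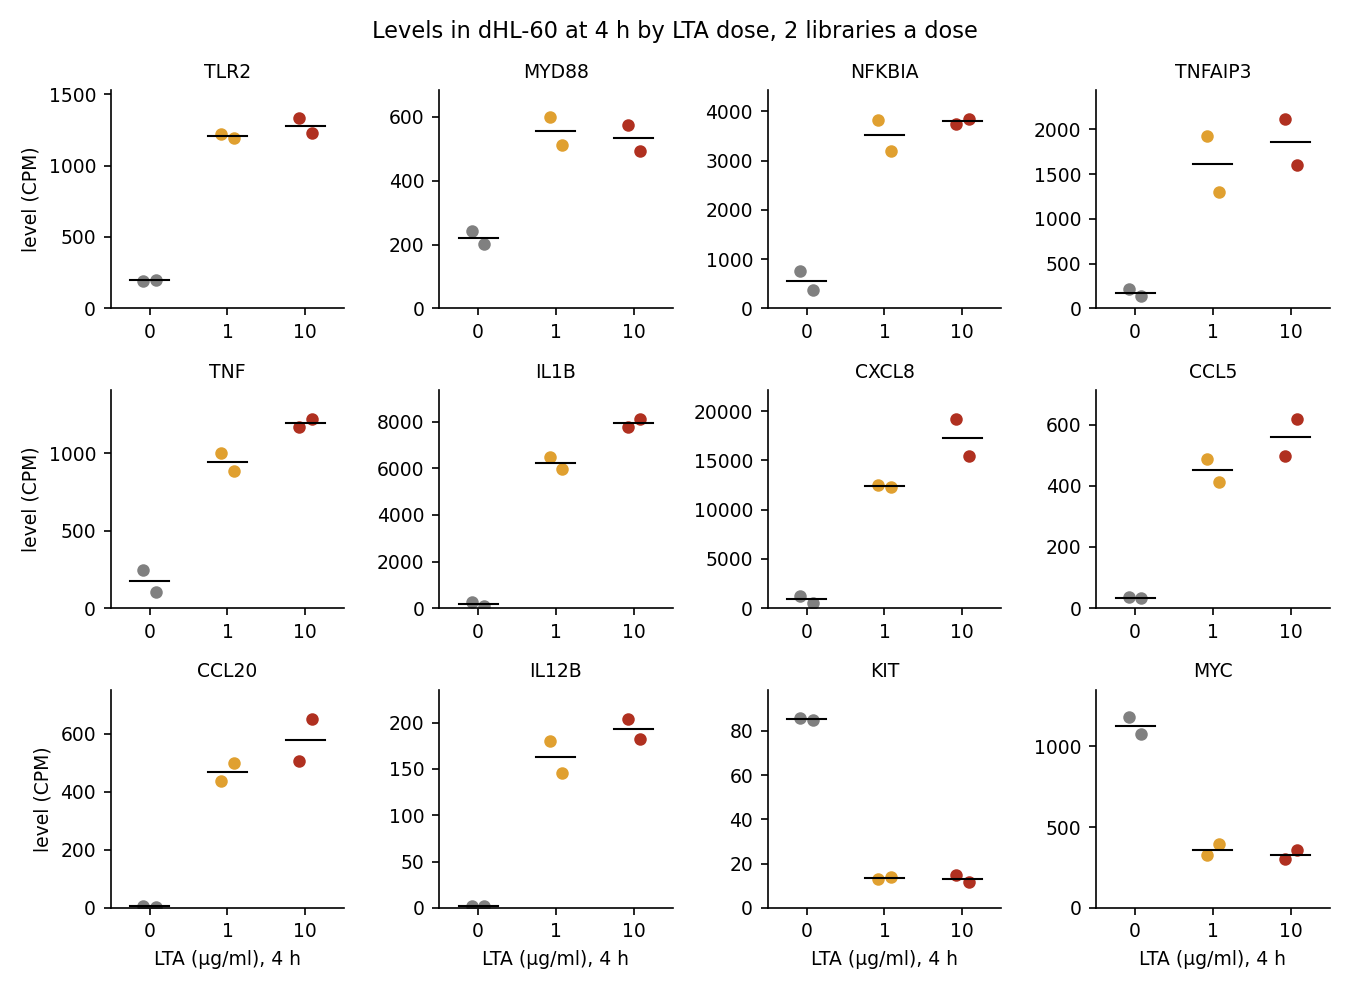
CPM of LTA response genes in each 4 h library by dose (0, 1 and 10 µg/ml), 1 point per library, with a line at each mean. TLR2 stood at 1330.5 and 1227 CPM at 10 µg/ml and 1221 and 1191 CPM at 1 µg/ml, all above the 194 and 201 CPM of untreated cells.

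Most cytokines and growth factors tested rose at each dose. Of 27 tested, 22 were called higher and 1 lower at 10 µg/ml than in untreated cells, and 21 higher and 1 lower at 1 µg/ml. Between the doses 0 were called and 2, CSF3 and IL1A, had an unadjusted p under 0.05. The median difference was 0.25, with 20 of 27 members above 0 and 17 intervals within 2-fold. Both libraries of 10 µg/ml lay above both of 1 µg/ml for 10 of the 27 (37%), against 13.6% of all genes. For 3 of the 27 they lay below, against 1347 of all 11866 genes. CSF3, the granulocyte growth factor G-CSF, stood at 40.8 and 58.2 CPM at 10 µg/ml, against 30.05 and 41.1 CPM at 1 µg/ml, and untreated cells held 0.102 and 0.084 CPM. The dose groups overlapped for CSF3, with a log2 difference of 0.47 ± 0.21 (SE, unadjusted p = 0.0419).

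IL1B, the inflammatory cytokine interleukin-1β, stood at 7776 and 8109 CPM at 10 µg/ml, against 6494 and 5994 CPM at 1 µg/ml, and TNF, tumour necrosis factor, at 1172 and 1224 CPM at 10 µg/ml, against 999 and 887 CPM at 1 µg/ml. Their folds between the doses were 1.27 (0.822 to 1.97) and 1.27 (0.863 to 1.87), neither called. IL6, interleukin-6, stood at 13.8 and 23.4 CPM at 10 µg/ml, against 10.1 and 13.5 CPM at 1 µg/ml, with a fold of 1.57 (0.97 to 2.53). IL12B, the shared subunit of interleukins 12 and 23, was at 1.19-fold (0.935 to 1.51).

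Chemokines also rose at each dose. Against untreated cells 17 of 18 rose at 10 µg/ml and 17 at 1 µg/ml, with 0 lower. Between the doses 0 were called, 1 had an unadjusted p under 0.05, and 17 lay above 0 with a median of 0.29. CCL5, which attracts T cells and monocytes, was that gene, at 498 and 619 CPM at 10 µg/ml, against 489 and 414 CPM at 1 µg/ml (log2 0.31 ± 0.14, unadjusted p = 0.0494). CXCL8, the neutrophil attractant interleukin-8, stood at 19192 and 15469 CPM at 10 µg/ml, against 12520.4 and 12309 CPM at 1 µg/ml, 1.4-fold (0.85 to 2.29). CCL3, CCL4 and CCL20 were at 1.11-, 1.2- and 1.24-fold, with intervals of 0.64 to 1.93, 0.689 to 2.09 and 0.874 to 1.75. Only 10 of the 18 intervals lay within 2-fold, so differences of that size could not be set aside for the other 8. Both libraries of 10 µg/ml lay above both of 1 µg/ml for 6 of the 18 (33.3%), against 13.6% of all genes. For 0 they lay below, against 1347 of all 11866 genes.

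Some genes known from these data to fall with LTA were followed at both doses. KIT, the stem cell factor receptor of progenitors, stood at 14.8 and 11.6 CPM at 10 µg/ml, against 13.00 and 13.8 CPM at 1 µg/ml, and untreated cells held 85.8 and 84.9 CPM. MYC, a growth regulator, stood at 305 and 356 CPM at 10 µg/ml, against 325 and 397 CPM at 1 µg/ml, and untreated cells held 1183 and 1075 CPM. Both fell at each dose against untreated cells, KIT by 2.70 and 2.67 and MYC by 1.77 and 1.65 at 10 and 1 µg/ml on the log2 scale. Their folds between the doses were 0.981 (0.718 to 1.34) and 0.915 (0.712 to 1.18). CD1D, a lipid antigen presenting molecule, and COL9A3, a collagen chain, were at 1.07-fold (0.618 to 1.84) and 0.575-fold (0.255 to 1.3). SIGLEC15 and YPEL4 had wide intervals, 0.91 to 3.81 and 0.344 to 3.52.

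Sterol synthesis and uptake had the highest median difference between 10 and 1 µg/ml among the lists with the low-count filter. With no filter the red cell and platelet list, which holds HBB, had a median of 1.39, against 0.49 for the sterol list. Of 24 members tested, 23 were above 0, with a median log2 difference of 0.49. With edgeR 0 were called, 11 (45.8%) were higher at an unadjusted p under 0.05 and 0 lower, and DESeq2 called 0. Over all genes 0.657% were higher and 1.16% lower at that p with edgeR. In 14 of 24 (58.3%) both libraries of 10 µg/ml lay above both of 1 µg/ml, against 13.6% of all genes. Against untreated cells 17 rose at 10 µg/ml (median 1.16), and 14 rose and 1 fell at 1 µg/ml (median 0.66). In all, 14 of the intervals between the doses lay within 2-fold.

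HMGCS1, which makes HMG-CoA, stood at 408 and 629 CPM at 10 µg/ml, against 179 and 349 CPM at 1 µg/ml, with 43.5 and 102 CPM in untreated cells. Groups did not overlap for HMGCS1, whose log2 difference was 0.97 ± 0.37 (SE, unadjusted p = 0.0196) and 0.56 to 1.53 when 1 library was left out. IDI1, which isomerises isopentenyl diphosphate, stood at 147 and 183 CPM at 10 µg/ml, against 80.5 and 110.4 CPM at 1 µg/ml and had the smallest p of the list, 1.72-fold with an interval of 1.25 to 2.37 (unadjusted p = 0.00265). Its log2 difference was 0.57 to 1.03 when 1 library was left out.

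MVD, which makes isopentenyl diphosphate, and FDPS, farnesyl diphosphate synthase, were at 1.4-fold (1.09 to 1.8) and 1.42-fold (1.15 to 1.75). ACAT2, an acetyl-CoA thiolase, HSD17B7 and EBP, later sterol enzymes, were at 1.5-, 1.46- and 1.4-fold, and SC5D, a sterol desaturase, and MSMO1, a methylsterol oxidase, at 1.79- and 1.81-fold. INSIG1, which holds SREBP2 in the endoplasmic reticulum, had a log2 difference of 0.36 ± 0.24 (SE). SREBF2 itself was at 1.03-fold (0.841 to 1.27), and STARD4, a sterol carrier, at 1.44-fold (0.991 to 2.1).

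The sterol difference was also taken library by library. Between libraries of the same replicate number the median member was 0.46 higher at 10 µg/ml on the log2 scale for the first libraries (22 of 24 members higher) and 0.53 for the second (23 of 24). Across numbers it was 0.90 for the second 10 µg/ml library over the first 1 µg/ml library (24 of 24) and 0.07 for the first over the second (14 of 24). Pairings across numbers also hold any difference between first and second libraries. HMGCS1 was higher in the second library of each group of 4 h, with 426 and 1220 counts in untreated cells. In the pairing of the first 10 µg/ml library with the second 1 µg/ml library many other lists had higher medians. Among them were red cell and platelet markers (0.43), immediate early genes (0.32), chemokines (0.30), cytokines (0.23), the NF-κB list (0.16) and reference genes (0.14). For the first libraries only red cell and platelet markers had a higher median (0.54). Members higher at an unadjusted p under 0.05 numbered 3 without the first 1 µg/ml library, 17 without the second, 15 without the first 10 µg/ml library and 1 without the second. Over the same 4 fits the median difference was 0.21 to 0.70. With no filter on low counts edgeR called 22 genes, 5 of them in this list, with HMGCS1, MSMO1, IDI1 and SC5D among these. In that fit the prior degrees of freedom of the spread were infinite, against 7.54 with the filter.

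**Figure D3:**
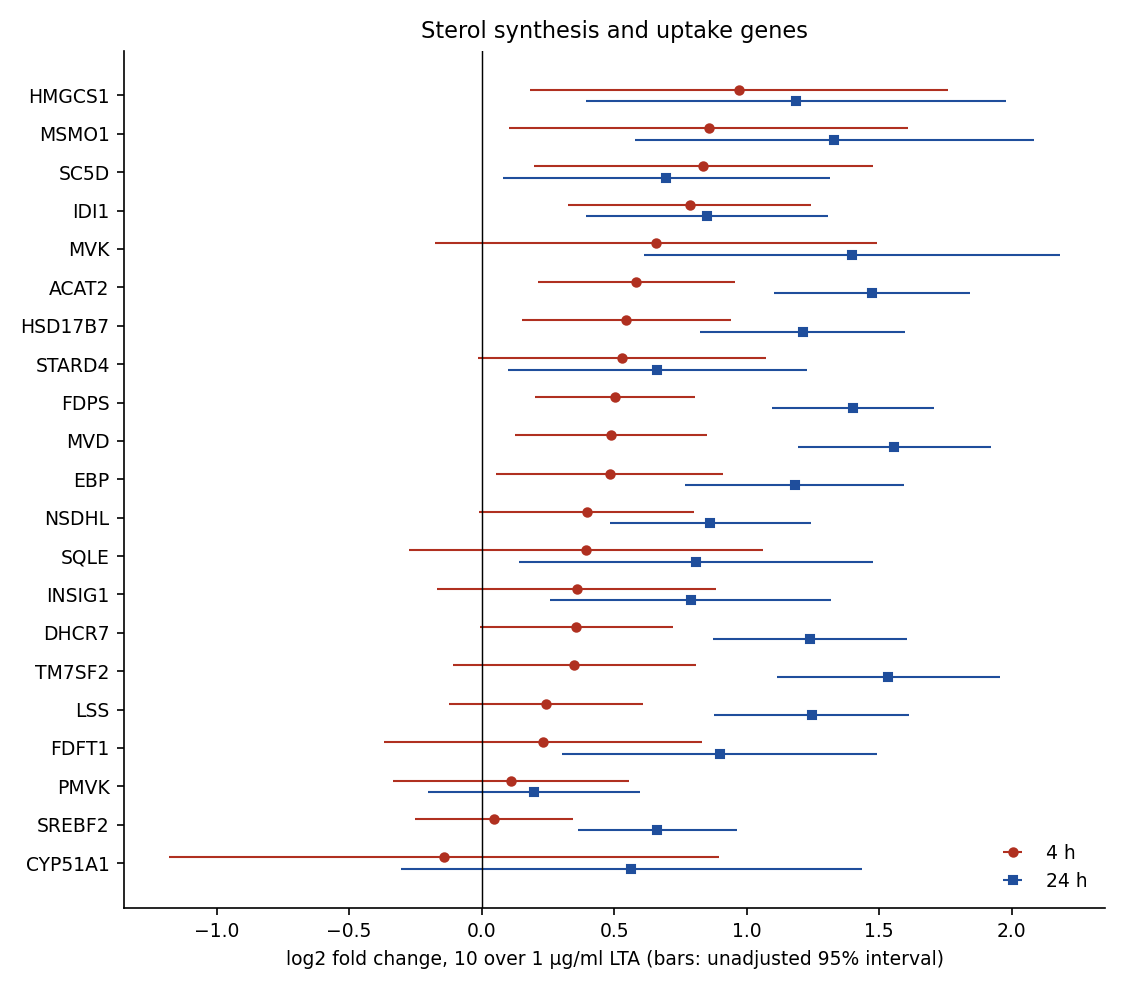
Log2 difference between 10 and 1 µg/ml LTA at 4 h (circles) and 24 h (squares) for tested sterol synthesis and uptake genes, with unadjusted 95% intervals. HMGCS1 and IDI1 lie above 0 at 4 h, at 0.97 and 0.78.

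The promoters of 4 of these genes are shown for the letters known from SREBP2 control, the sterol regulatory element core CACNCCAC and the CCAAT box CCAAT, to which the partner factor NF-Y binds. IDI1 and SREBF2 hold both, and HMGCS1 and FDPS hold CCAAT but no CACNCCAC in the window. Windows are from RefSeq, build GRCh38.p14, 5′ to 3′ along the gene's strand. For a gene with several listed starts, the window with most CACNCCAC, then most CCAAT, was taken, so the choice itself favours matches. Capitals mark matches on either strand, and overlapping matches are written as 1 run. The IDI1 stretch is chr10:1048954-1049033, minus strand. The HMGCS1 stretch is chr5:43313493-43313582, minus strand, the FDPS stretch chr1:155308675-155308834, plus strand, and the SREBF2 stretch chr22:41832958-41833018, plus strand.
IDI1: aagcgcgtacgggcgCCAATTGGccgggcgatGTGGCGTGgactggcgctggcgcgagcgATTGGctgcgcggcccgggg
HMGCS1: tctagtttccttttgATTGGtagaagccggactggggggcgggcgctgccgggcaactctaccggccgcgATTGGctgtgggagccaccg
FDPS: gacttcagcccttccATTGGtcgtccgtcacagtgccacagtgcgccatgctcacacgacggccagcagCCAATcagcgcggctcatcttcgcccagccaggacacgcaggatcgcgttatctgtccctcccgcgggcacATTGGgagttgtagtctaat
SREBF2: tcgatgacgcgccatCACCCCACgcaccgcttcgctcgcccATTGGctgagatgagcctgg

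Of 25 list members, 18 had a promoter window (250 bases before to 50 after the start), and 16 of those 18 held CCAAT on either strand (88.9%), against 39.7% of 27305 genes. CACNCCAC was in 4 of 18 (22.2%), IDI1, INSIG1, SC5D and SREBF2, against 7.05% of genes. A gene was counted when any of its windows held the letters. A match is a description of the letters in the window.

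Fatty acid genes, which the related factor SREBP1 controls, had a median of 0.09 over 12 members, with 0 called and 2 at an unadjusted p under 0.05. ME1, malic enzyme that supplies NADPH, stood at 28.6 and 20.4 CPM at 10 µg/ml, against 16.6 and 14.5 CPM at 1 µg/ml (log2 0.66 ± 0.21, unadjusted p = 0.00651). Sterol efflux and LXR targets had a median of -0.10 over 10 members with 0 called. MYLIP, an LXR-induced ubiquitin ligase, stood at 4.21 and 2.15 CPM at 10 µg/ml, against 8.34 and 4.42 CPM at 1 µg/ml (log2 -0.97 ± 0.33, unadjusted p = 0.011). ABCA1 and ABCG1, which export sterol, were at 0.907-fold (0.588 to 1.4) and 1.63-fold (0.351 to 7.61).

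HMOX1, haem oxygenase of the NRF2 antioxidant response, stood at 52.5 and 91.4 CPM at 10 µg/ml, against 27.6 and 44.6 CPM at 1 µg/ml, with a log2 difference of 0.98 ± 0.28 (SE, unadjusted p = 0.0037), and its groups did not overlap. Over 19 genes of that list the median was 0.11, with 15 above 0, 0 called, 2 higher and 1 lower at an unadjusted p under 0.05. SRXN1 of the same list went the other way from HMOX1, with 2 and 11 counts at 10 µg/ml, against 15 and 44 at 1 µg/ml. Both libraries of 10 µg/ml lay above both of 1 µg/ml for 9 of the 19 (47.4%), against 13.6% of all genes. They lay below for 1, against 1347 of all 11866 genes. JUND, an AP-1 subunit, stood at 158 and 202 CPM at 10 µg/ml, against 317 and 207 CPM at 1 µg/ml, and it was the only one of 30 immediate early genes at an unadjusted p under 0.05 (0.0345, log2 -0.54 ± 0.23). CFD, the complement protease made in promyelocytes, stood at 282 and 478 CPM at 10 µg/ml, against 638 and 651 CPM at 1 µg/ml (log2 -0.76 ± 0.24, unadjusted p = 0.00708). When 1 library was left out, HMOX1 moved between 0.52 and 1.38, JUND between -0.82 and -0.21, and CFD between -1.20 and -0.43 on the log2 scale.

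Some lists had narrow intervals. All 35 cell cycle genes, 28 apoptosis genes, 19 heat shock genes, 27 reference genes and 8 NADPH oxidase genes had intervals within 2-fold, against 81.9% of all genes, and 0 of them were called. Of the reference genes 2 were higher at an unadjusted p under 0.05, and of the other 4 lists 0 were. Both libraries of 10 µg/ml lay above both of 1 µg/ml for 9 of 19 heat shock genes and 8 of 27 reference genes, against 13.6% of all genes. The smallest p in the first 4 of these lists belonged to CDT1, a replication licensing factor at 0.813-fold (0.641 to 1.03), BCL2A1, an apoptosis inhibitor at 1.25-fold (0.925 to 1.69), DNAJB1, a chaperone at 1.13-fold (0.936 to 1.36) and PPIA, a prolyl isomerase at 1.26-fold (1.01 to 1.57). Interferon-stimulated genes had a median of 0.06 over 24 members and 0 at an unadjusted p under 0.05.

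The genes at an unadjusted p under 0.05 differed in base composition by direction. They were 1.82% of the genes tested, a smaller share than that threshold alone would give, so single members may not differ between the doses. The 138 lower genes had a median transcript GC content of 60.1%, the 78 higher genes 49.1%, and all genes tested 48.6%. In the fifth of genes richest in GC, median deviations from the mean of the 4 libraries were -0.08 and 0.03 at 10 µg/ml (first and second library) and 0.12 and -0.05 at 1 µg/ml on the log2 scale. The sterol list had a median GC of 50.3%, and its median difference was 0.46 with the GC trend removed, a setting chosen after seeing the data. The part of base composition in the differences of single genes was not tested. GET4, EGLN1 and IER5L, which code for a membrane insertion factor, an oxygen-sensing hydroxylase and an early response protein and were named after their values were seen, were -0.97 ± 0.21, -1.16 ± 0.27 and -0.93 ± 0.23 (SE) on the log2 scale.

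HBB rose at 10 µg/ml relative to 1 µg/ml. HBB lies on chromosome 11 at 5225464 to 5227071 in GRCh38.p14. It stood at 20.8 and 23.4 CPM at 10 µg/ml, against 0.491 and 0.155 CPM at 1 µg/ml, and in untreated cells at 31.97 and 34.4 CPM. The 2 libraries of 1 µg/ml, with 4 and 2 counts, stood apart from the 4 other libraries of 4 h, which held 212 to 409 counts. The fold between doses was 74.3 (95% interval 43.7 to 126, log2 6.22 ± 0.35, adjusted p = 3.85e-06). The log2 difference of 10 µg/ml from untreated cells was -0.59 ± 0.20 (SE), so the lowest HBB level at 4 h was at the middle dose.

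HBA1 and HBA2, which encode alpha globin, were also without counts at 1 µg/ml. HBA2 had 5 and 8 counts at 10 µg/ml, 0 and 0 at 1 µg/ml, and 8 and 18 in untreated cells, at least 4.36-fold higher at 10 than at 1 µg/ml when the 1 µg/ml group is set to a floor of 3 counts. HBA1 had 5 and 4 counts at 10 µg/ml and 0 and 0 at 1 µg/ml, at least 3.02-fold higher. Without HBB, HBA1 and HBA2, the other 12 red cell and platelet markers summed to 11.2 and 11.9 CPM at 10 µg/ml and 10.2 and 12.01 CPM at 1 µg/ml. Most of that sum was the platelet gene GP1BA, at 9.60 and 9.34 CPM at 10 µg/ml and 8.46 and 9.99 CPM at 1 µg/ml. KLF1, an erythroid transcription factor, had 8 and 5 counts at 10 µg/ml and 4 and 7 at 1 µg/ml. The 7 other red cell genes together had 0 and 6 counts at 10 µg/ml, 0 and 1 at 1 µg/ml, and 2 and 2 in untreated cells, too few to compare. At 24 h HBB stood at 0.593 and 0.976 CPM at 10 µg/ml and 1.03 and 1.31 CPM at 1 µg/ml. Untreated cells of 24 h had 0 and 0 HBB counts, against 313 and 409 in untreated cells of 4 h. HBB thus also differed between times without LTA, and at 24 h its lowest level was in untreated cells.

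**Figure D4:**
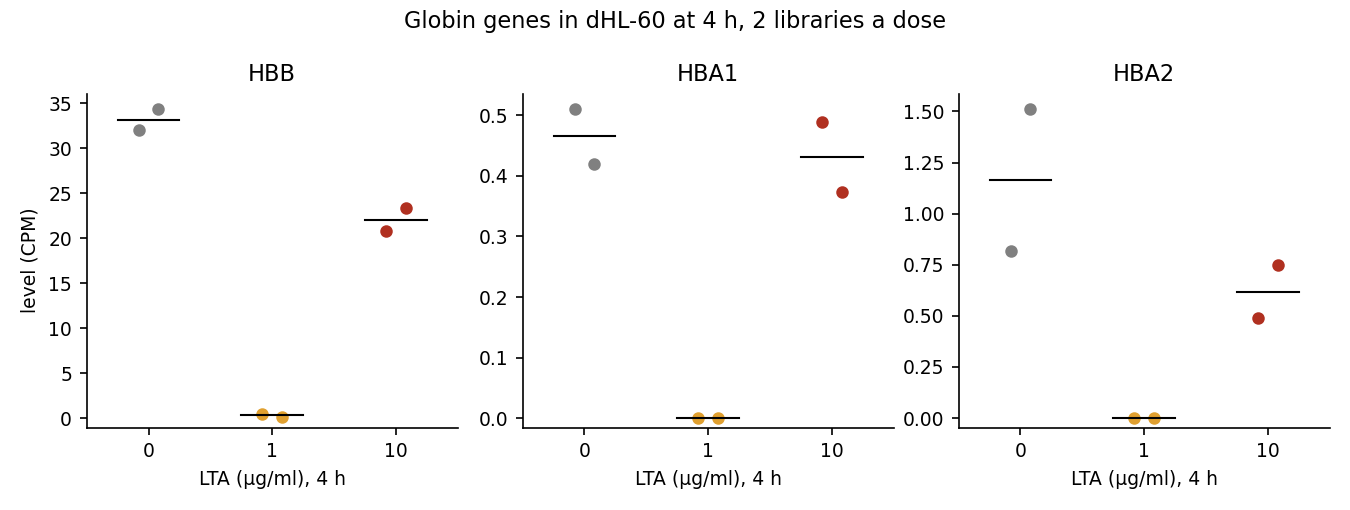
Levels in CPM of the globin genes HBB, HBA1 and HBA2 in each 4 h library by dose (0, 1 and 10 µg/ml), 1 point per library, with a line at each mean. HBB stands at 20.8 and 23.4 CPM at 10 µg/ml, 0.491 and 0.155 CPM at 1 µg/ml, and 31.97 and 34.4 CPM in untreated cells.

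EIF3CL, a near-identical copy of the translation factor gene EIF3C, stood at 20.6 and 13.5 CPM at 10 µg/ml, against 3.43 and 3.25 CPM at 1 µg/ml, 2.35 ± 0.36 (SE) on the log2 scale. Its level is uncertain, because the counting could split reads between these copies.

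At 24 h the same doses differed in more genes. There 453 genes (3.82%) were called between 10 and 1 µg/ml, 359 higher (3.03%) and 94 lower (0.792%), with a median SE of 0.183 against 0.188 at 4 h. Without the first or second 1 µg/ml library of 24 h the counts were 191 and 49, and without the first 10 µg/ml library 73. In the sterol list 12 of 24 were called higher at 24 h, with a median of 1.01. Chemokines had 11 of 18 called higher, cytokines 7 of 27 and the NF-κB list 9 of 27. Libraries of the 2 doses lay 0.442 to 0.599 apart at 24 h, where replicates lay 0.411 apart at 10 µg/ml and 0.359 at 1 µg/ml.

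The difference between times was itself tested, as an interaction. It called 22 genes (0.185%), 21 with a 10 minus 1 µg/ml difference higher at 24 h than at 4 h (0.177%) and 1, HBB, lower (0.00843%). CCL20, which attracts dendritic cells and T cells, stood at 7.96 and 4.04 CPM at 10 µg/ml and 0.734 and 0.393 CPM at 1 µg/ml at 24 h. At 4 h it stood at 505 and 649.7 CPM at 10 µg/ml and 436 and 498 CPM at 1 µg/ml. The interaction was 3.08 ± 0.54 (SE, adjusted p = 0.035), and for CD14 it was 1.25 ± 0.21 (adjusted p = 0.035).

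In the sterol list 0 genes were called for the interaction and 9 of 24 were higher at an unadjusted p under 0.05 with 0 lower. Over all genes 856 (7.21%) were higher and 511 (4.31%) lower at that p. The NF-κB list had 13 of 27 higher and chemokines 11 of 18, both with 0 lower. The count of genes called moved with single libraries: without the first library of 10 µg/ml at 4 h it was 1, without the first of 1 µg/ml at 4 h 12, without the first or second of 1 µg/ml at 24 h 12 and 2, and without the first or second of 10 µg/ml at 24 h 9 and 58.

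**Figure D5:**
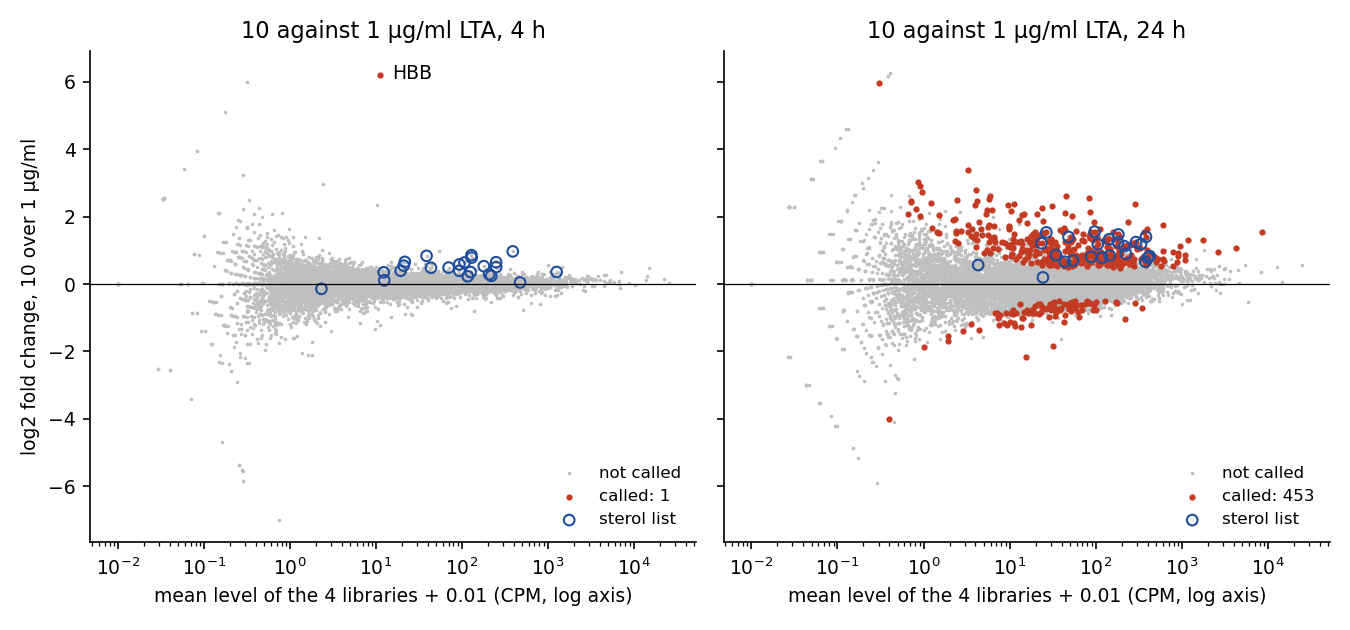
Log2 difference between 10 and 1 µg/ml LTA against mean level in CPM (log axis), at 4 h and at 24 h, 1 point per gene, with called genes in red and the sterol list circled. At 4 h 1 gene is called, HBB, and at 24 h 453.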

How the data were processed

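RNA was measured in 16 HL-60 libraries, of which 12 (dHL-60, 6 groups of 2) were used. The 4 columns of undifferentiated cells were not used here. The authors deposited counts per gene, as whole numbers without normalization, for 23575 gene symbols. Per the labels, a stranded mRNA kit was used. Per the submitters' processing notes, fastp 0.20.0, HISAT2 2.1.0, featureCounts 2.0.1, Subread, DESeq2 1.28.0, edgeR 3.36.0 and GRCh38 were used, with no role or order given. The sources used here do not state the strand setting, so antisense and overlapping genes are uncertain.

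Counts were tested with edgeR 4.0.16 (R 4.3.3, quasi-likelihood F test, two-sided, TMM scaling, filterByExpr, 11866 genes) over the 12 dHL-60 libraries, with Benjamini-Hochberg adjustment and an adjusted p under 0.05 called. Gene p-values, adjusted or not, are from this test where no other tool is named. Intervals are the estimate with the 95% t quantile of its SE, and floors of 3 counts cover counting error only. Alternatives were other scaling, filters, DESeq2 1.42.0, a replicate block, fewer libraries and leaving out each library. Duplicates differed by more than counting noise and were kept as separate samples.

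Named genes were HBB and any other called gene of at least 5 CPM, a followed list, the member of each of 26 lists with the smallest p, and the 5 largest interactions in each direction. The members and lists were chosen with earlier results of these data known. Promoter windows came from RefSeq. Some members are counted in the lists but not reported here by name, nor drawn among the sterol genes.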

Additional observations from a re-analysis of the deposited data

Results flagged for a closer look

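The interaction test of edgeR called 22 genes whose difference between 10 and 1 µg/ml differed between 24 h and 4 h. Of these, 6 are given here: the 5 largest higher and the 1 lower, among those of at least 5 CPM in a group. Each value is the log2 difference at 24 h minus that at 4 h. It was 3.08 for CCL20, 2.69 for ADGRG3, 2.47 for UPB1, 2.44 for ECE1 and 2.16 for PDGFA, so these 5 genes differed more between the doses, towards 10 µg/ml, at 24 h. It was -6.76 for HBB, which at 24 h stood at 0.593 and 0.976 CPM at 10 µg/ml and 1.03 and 1.31 CPM at 1 µg/ml. Untreated cells of 24 h had 0 and 0 HBB counts. How many genes the interaction called moved from 1 to 58 when a single library was left out. No cause was tested.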

How the results depend on the processing

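Depth was 9653374 counts or more per library, and with 2 libraries a group a gene's log2 difference had a median SE of 0.188. HBB was called under every alternative run. Of 63 named genes, leaving out a library changed the sign of 2 (first 1 µg/ml library), 13 (second), 4 (first 10 µg/ml library) and 8 (second), among them MYD88 (-0.18 to 0.06), CCL3 (-0.16 to 0.56), TNFAIP3 (-0.05 to 0.51) and ABCG1 (-0.50 to 1.34), none of them called. No other setting changed a sign. The genes called between the doses at 4 h were 22 with no filter (9 higher, 13 lower, at 17090 genes tested), and 2 with DESeq2, with only the 4 libraries compared and with only the 6 libraries of 4 h. Leaving out a library gave 1 to 2. Genes at an unadjusted p under 0.05 numbered 341 with no filter, 134 with DESeq2 and 178 to 353 without a library. Sterol members at that p numbered 17 with no filter and 1 to 17 without a library, and their median was 0.21 to 0.70. Genes called at 24 h were 1354 with no filter, 765 with DESeq2 and 49 to 662 without a library. Genes called for the interaction were 395 with no filter, 161 with DESeq2, 92 with the replicate block and 1 to 58 without a library. Against untreated cells, leaving out a library gave 3181 to 4355 genes at 10 µg/ml and 3404 to 4142 at 1 µg/ml. The labels do not say that a replicate number marks a shared batch. Single genes, picked after their values were seen, differed the same way between first and second libraries in each group of 4 h. FOS had 3276 and 824 counts in untreated cells, 2184 and 551 at 1 µg/ml, and 2660 and 538 at 10 µg/ml. MT2A had 455 and 1972, 600 and 2254, and 553 and 2417 counts in the same order. The correlation of same-numbered deviations was 0.21 between the 2 doses at 4 h, 0.13 and 0.38 for 10 and for 1 µg/ml with untreated cells, and -0.20 to 0.38 over all 15 pairs of groups. With the replicate block the call at 4 h was 1 gene. That block was a single term for both times, so it does not cover a replicate difference found at 4 h only. The median of the sterol list was 0.46 with the GC trend removed, a setting chosen after seeing the data. The cause of these changes was not tested.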

Other observations

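Further lists at 4 h also had 0 members called between 10 and 1 µg/ml. The 24 genes of the unfolded protein and amino acid response had a median log2 difference of 0.06, the 26 glycolysis and hypoxia genes 0.11, the 28 ribosome biogenesis genes 0.08, the 25 respiratory chain genes 0.05 and the 11 inflammasome genes 0.00, with 0.01 over all genes. Of these lists only the respiratory chain had a member at an unadjusted p under 0.05. That member was NDUFA1, a small subunit of complex I, at 36.8 and 54.1 CPM at 10 µg/ml, against 29.6 and 30.1 CPM at 1 µg/ml (log2 0.61 ± 0.20, unadjusted p = 0.00994).

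The member with the smallest p was PFKFB3, which raises glycolytic flux, among glycolysis genes (1.23-fold, 0.975 to 1.56), SDF2L1 in the unfolded protein response (0.794-fold, 0.614 to 1.03), and POLR1C, a polymerase subunit, among ribosome biogenesis genes (1.19-fold, 0.949 to 1.5). NLRP12 was that gene in the inflammasome list (0.603-fold, 0.292 to 1.25) and IFI6 among interferon-stimulated genes (0.766-fold, 0.513 to 1.14). C1QA, a complement gene of macrophages, stood at 0.686 and 0.841 CPM at 10 µg/ml, against 0.368 and 0.232 CPM at 1 µg/ml. MS4A2 of mast cells and basophils and NKG7 of cytotoxic lymphocytes were at 1.54-fold (0.631 to 3.78) and 1.16-fold (0.887 to 1.51).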
